A study of Schmidtea mediterranea with 177 samples.

Results

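Muscle cells from in front of the pharynx were compared with muscle cells from the tail tip of the planarian Schmidtea mediterranea. The comparison held 34 single cells: 22 pre-pharyngeal muscle cells, of which 6 came from region 2, 6 from region 3 and 10 from region 4, and 12 tail muscle cells from region 10. They were chosen by the region and the muscle annotation in the cell labels, out of 115 muscle cells and 177 cells in all. The animals were intact asexual CIW4 animals, starved for 7 to 14 days, with no treatment and no mutation on either side. The tissue between the ventral nerve cords was cut into 10 consecutive regions from head to tail, single cells with a non-dividing DNA content were sorted from each, and cDNA of single cells was made with SmartSeq2, which copies full-length polyadenylated RNA, and checked for muscle transcripts by qRT-PCR ahead of sequencing. No label names the animal or the plate of a cell, so a region was taken as 1 sample, and the cells of a region were not used as replicates.

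Planarian body-wall muscle lies around the whole animal and, besides contracting, transcribes genes that give neighboring cells positional information. Wnt ligands bind Frizzled receptors and promote posterior identity through beta-catenin, while secreted Wnt inhibitors and FGF receptor-like (FGFRL) proteins of the nou-darake family act in anterior tissue. Hox genes encode homeodomain transcription factors with restricted domains along the body axis. Genes with a restricted domain in muscle are called muscle regionally expressed genes (mRGs) below. The 44 mRGs listed in the study were in part selected on these same cells, so their direction here is not independent evidence.

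The question of the comparison was which transcripts separate muscle of the pre-pharyngeal region from muscle of the tail tip. Tail cells were much deeper. Pre-pharyngeal cells had 92301 to 654671 reads (median 247683) and tail cells had 197830 to 3884642 reads (median 1238250), with 8 of 12 tail cells over 1000000 reads. All cells were therefore thinned at random to 90000 reads, a depth that every cell reaches, and a transcript was called expressed in a cell with more than 2 of these reads. At that depth pre-pharyngeal cells expressed 1337 to 2519 transcripts (median 2037) and tail cells 1518 to 3542 (median 2704), and 9 of the 12 tail cells had more transcripts than any pre-pharyngeal cell. Equal depth narrowed the gap but did not close it.

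**Figure D1:**
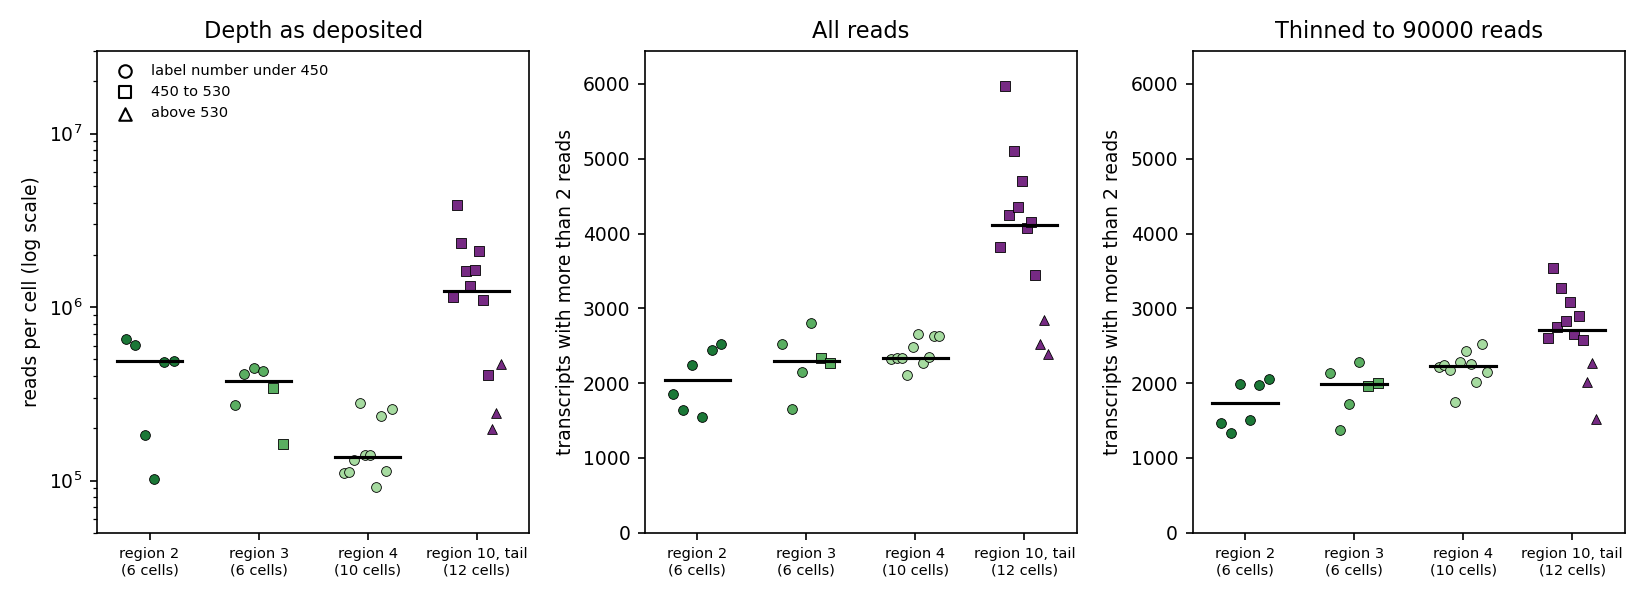
Reads per cell on a log axis (left), transcripts with more than 2 reads from all reads (middle) and after thinning to 90000 reads (right), in single muscle cells of regions 2, 3, 4 and 10. Each point is a cell, its shape gives the range of its label number and the bar is the median of the region. Tail cells had a median of 4118 transcripts from all reads and 2704 at equal depth.

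The cells also differed in the number in their label, whose meaning is not stated in the sources used here. Of the 22 pre-pharyngeal cells, 20 had numbers under 450, whereas no tail cell did. The 2 others, from region 3, shared the range 450 to 530 with 9 tail cells, and 3 tail cells, r10_547, r10_592 and r10_602, had higher numbers. These 3 tail cells stood apart: 4 contigs, dd_53369, dd_33146, dd_15789 and dd_Smed_v4_44765_0_1, held 8.24% of the reads of r10_547, 2.72% of r10_592 and 21.5% of r10_602, against at most 0.099% in the other 9 tail cells and at most 0.097% in pre-pharyngeal cells. Results that rest on these 3 cells are given with and without them. Region and number range overlap in so few cells that a difference tied to the number cannot be told apart from a difference between the regions.

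The muscle label of the cells was set by the study from expression in these same libraries, and its marker lists were drawn from them too, so the marker levels describe that choice and are no independent check of it. All 12 muscle markers, among them troponin, myosin heavy chain and collagens, were detected in both groups, with a summed level of 6618 to 38374 cpm (counts per 1000000 reads of a cell, median 15710) in pre-pharyngeal cells, 4657 to 58417 cpm (median 18178) in tail cells and a median of 172 cpm in the 62 non-muscle cells. The 12 epidermal lineage markers summed to 0 to 1768 cpm (median 28.7) in pre-pharyngeal cells and 1.55 to 2151 cpm (median 45.6) in tail cells, against a median of 6743 cpm in non-muscle cells. Of these, VIL1, ZFP-1, FABP7, COTL1 and P53 were at 0 in pre-pharyngeal cells and COTL1 was at 0 in tail cells. The 12 markers of neoblasts, the dividing stem cells of planarians, summed to 4949 to 20574 cpm (median 9734) in pre-pharyngeal cells and 562.5 to 10849 cpm (median 4462) in tail cells, against a median of 3412 cpm in non-muscle cells. All 12 were detected in both groups, 11 had a higher mean level in pre-pharyngeal muscle, and SMEDWI-1, a PIWI-family gene of stem cells, averaged 1025 cpm in pre-pharyngeal cells and 384.7 cpm in tail cells. The part of these markers in the results below was not tested.

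Transcripts were compared in 2 ways, over 9228 transcripts, those expressed in 3 or more of the 34 cells when all reads were used. First, counts were summed over the cells of each region and the 3 pre-pharyngeal sums were tested against the 1 tail sum with edgeR's quasi-likelihood test, with p-values adjusted by the Benjamini-Hochberg method. This test assumes that the lone tail sum varies as regions 2 to 4 vary among themselves, which includes any difference of position among them. Second, transcripts were described by a rule of size at equal depth, with no test: the share of expressing cells had to differ by at least 40 percentage points and the mean cpm + 5 by at least 4-fold in the same direction. Log2 ratios are pre-pharyngeal over tail, so a negative value means a higher level in tail muscle. On the scale of cpm + 5 they understate differences of low transcripts.

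The edgeR test called no transcript higher in pre-pharyngeal muscle (0% of 9228 transcripts) and 2 higher in tail muscle, which is 0.0217% of those tested. At an unadjusted p under 0.05 there were 279 transcripts, 40 higher in pre-pharyngeal and 239 higher in tail muscle. Toward pre-pharyngeal muscle limma also called 0 transcripts and DESeq2 called 49. Why DESeq2 differed was not tested. The contigs that edgeR called were among the 4 contigs that set the 3 tail cells apart. DESeq2 called neither of them, and limma called only dd_53369. For dd_53369 the log2 ratio was -6.47 ± 0.74 (SE, edgeR, adjusted p = 6.29e-05). For dd_33146 it was -7.04 ± 1.23 (SE, edgeR, adjusted p = 0.0336). In reads as deposited, dd_53369 reached 54845 cpm in r10_547, 18621 cpm in r10_592 and 138056 cpm in r10_602, against 37.1 to 457 cpm in the other 9 tail cells and 0 to 224 cpm in pre-pharyngeal cells. Without these 3 cells edgeR called 0 transcripts, with 283 at an unadjusted p under 0.05. The same contig reached 75626 cpm in muscle cells of region 9 with numbers above 530 and at most 235 cpm in those of region 9 with lower numbers, and 44509 cpm in non-muscle cells with numbers above 530. The files give no protein match for either contig.

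By the size rule 4 transcripts, 0.0433% of those tested, were higher in pre-pharyngeal muscle and 78, 0.845%, were higher in tail muscle. The 4 were the Frizzled gene fz4-4, the FGFRL gene ndl-3, dd_Smed_v4_7067_0_1 and dd_Smed_v4_11737_0_1. The 78 held 13 mRGs, among them the Frizzled gene fz4-1, 3 Hox genes, 2 Wnt ligands and wntless. Without region 4 the counts were 18 toward pre-pharyngeal and 223 toward tail muscle. Without the 3 tail cells numbered above 530 they were 8 and 134. Without the 8 deepest tail cells they were 126 and 155, but 3 of the 4 tail cells left are those numbered above 530. Depth and label number therefore cannot be told apart in that last run. In 19 of the 78 no pre-pharyngeal cell expressed the transcript. A transcript can pass the filter through tail cells alone, and the rule itself asks for a lower share in pre-pharyngeal cells. That count therefore describes the selected transcripts and is no separate result. All 82 had an edgeR log2 ratio of the same sign, but only dd_53369 and dd_33146 passed the adjusted threshold there. Over all transcripts tested the median difference of shares was -5.30 points and the median log2 ratio was 0.10. The tail direction was thus the more frequent one by share (5698 lower and 3184 higher in pre-pharyngeal muscle) and not by this level. By other measures of level the sign varied, with a median log2 ratio of -0.099 with edgeR, -0.746 with limma and 0.291 with DESeq2.

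**Figure D2:**
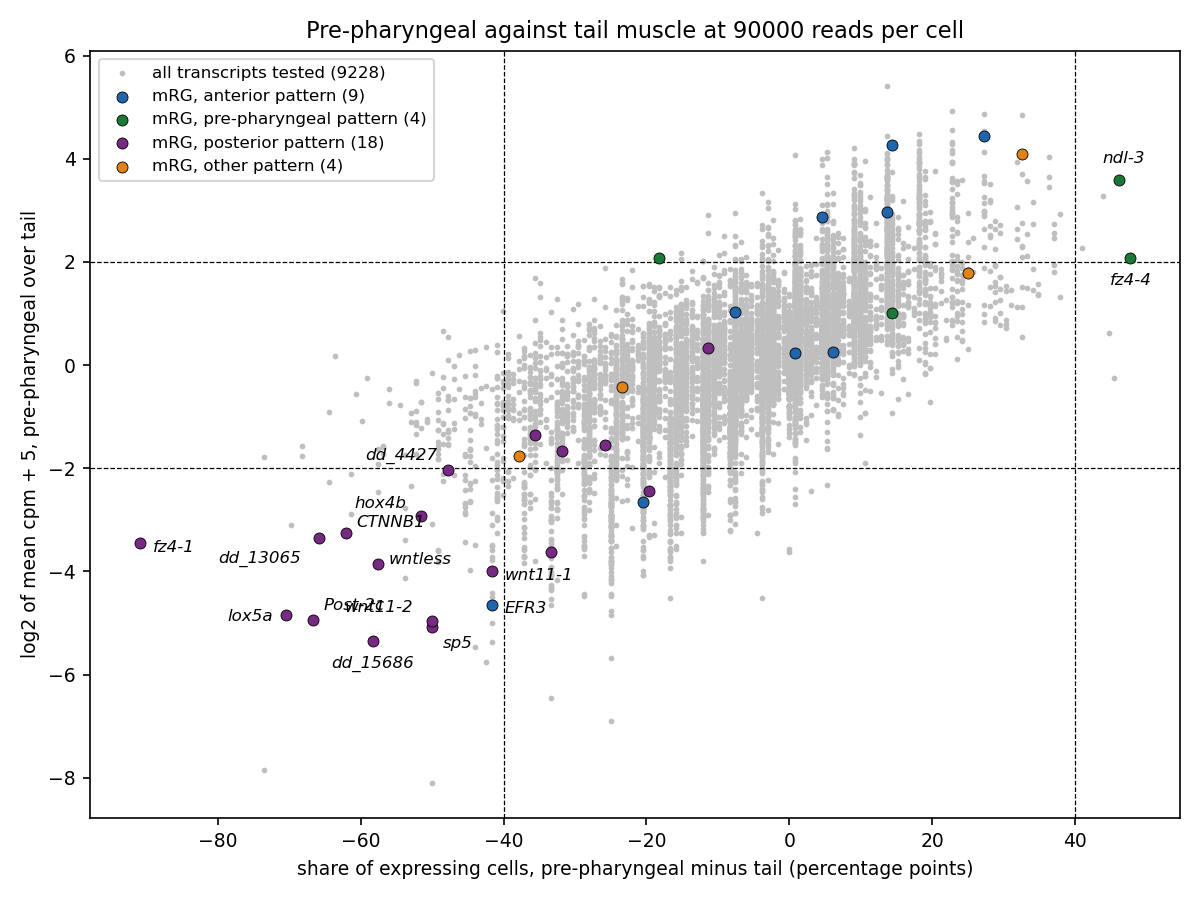
Difference in the share of expressing cells (horizontal axis, percentage points) against the log2 ratio of mean cpm + 5 (vertical axis), pre-pharyngeal against tail muscle at 90000 reads per cell. Gray points are the 9228 transcripts, colored points are the 35 mRGs that passed the filter by the side of their in situ pattern, dashed lines mark 40 points and 4-fold, and mRGs past both are named. The named posterior genes lie at the lower left, down to -90.9 points for fz4-1, and ndl-3 and fz4-4 lie at the upper right.

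Frizzled genes encode the membrane receptors of Wnt proteins, and this family held the widest difference of shares at 90000 reads. With all reads the Hox gene lox5a differed by more, -95.5 points against -90.9 points for fz4-1. fz4-1 (dd_Smed_v4_11650_0_1) was expressed in 2 of 22 pre-pharyngeal cells (9.09%, with a 95% exact binomial interval of 1.12 to 29.2%) and in 12 of 12 tail cells (100%, 73.5 to 100%). Its mean level was 0, 0 and 386.7 cpm in regions 2, 3 and 4 and 1975 cpm in region 10, a log2 ratio of -3.45. The intervals cover counting error only.

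In single cells fz4-1 ranged from 644 to 5289 cpm (median 1617) in tail muscle. It was at 0 in 20 of the 22 pre-pharyngeal cells. The 2 exceptions were region 4 cells, r04_371 at 911 cpm and r04_401 at 2956 cpm, which lie inside the range of the tail cells. With all reads the shares were the same, 9.09% and 100%. The edgeR log2 ratio on sums was -3.24 ± 5.08 (SE, adjusted p = 1.0), and edgeR called fz4-1 only when region 4 was left out.

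fz4-4 (dd_Smed_v4_7210_0_1) went the other way. It was expressed in 16 of 22 pre-pharyngeal cells (72.7%, 49.8 to 89.3%) and 3 of 12 tail cells (25.0%, 5.49 to 57.2%). Mean levels were 400, 462.96 and 843 cpm in regions 2, 3 and 4 and 143 cpm in region 10, where a single cell gave 76.0% of the tail reads. Groups overlapped, with pre-pharyngeal cells from 0 to 1800.0 cpm (median 472.2) and tail cells from 0 to 1300.0 cpm (median 0).

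This difference did not hold throughout. Neither region 3 cell in the shared number range expressed it, against 3 of the 9 tail cells there, so within that range the difference turned to -33.3 points and the log2 ratio to -5.29. Without the 3 tail cells numbered above 530 it stood at 72.7% and 33.3% with a log2 ratio of 1.68, under the rule in both share and level. When region 4 was left out it was also under the rule, with a log2 ratio of 1.56.

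The other receptors did not pass the rule. fz4-3 was expressed in a lower share of pre-pharyngeal than of tail cells, 7 of 22 and 6 of 12, while its mean level was 358 cpm in pre-pharyngeal and 80.6 cpm in tail muscle, with 40.4% of the pre-pharyngeal reads in a single cell. fz4-2 was expressed in 0 of 22 pre-pharyngeal cells, which allows a share of up to 15.4%, and in 4 of 12 tail cells. ptk7, a pseudokinase that acts as a Wnt co-receptor in vertebrates, was expressed in 11 of 22 pre-pharyngeal cells (532.3 cpm) and 3 of 12 tail cells (151 cpm). fz5/8-4 had similar shares, 5 of 22 and 2 of 12, and fz5/8-3 did not pass the filter. Frizzled genes are a family of related sequences, and how reads shared between them were assigned beyond the best alignment is not stated.

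FGFRL genes resemble FGF receptors without the intracellular kinase, and nou-darake (ndk) is known in planarians for confining brain tissue to the head. ndl-3 (dd_Smed_v4_6604_0_1) was expressed in 12 of 22 pre-pharyngeal cells (54.5%, 32.2 to 75.6%) and in 1 of 12 tail cells (8.33%, 0.211 to 38.5%). Its mean level was 324, 148 and 726 cpm in regions 2, 3 and 4 and 33.3 cpm in region 10, a log2 ratio of 3.60. The summed reads at equal depth were 908 (exact 95% Poisson interval 850 to 969) over pre-pharyngeal cells and 36 (25.2 to 49.8) over tail cells, all 36 in tail cell r10_502. Pre-pharyngeal cells ran from 0 to 1778 cpm with a median of 88.9 cpm, and the highest tail cell, at 400 cpm, lay below 9 of the 12 expressing pre-pharyngeal cells.

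In the shared number range ndl-3 was expressed in 1 of 2 region 3 cells and 1 of 9 tail cells, but the region 3 cell was low and the log2 ratio turned to -0.86. At 50000 reads its shares were 45.5% and 8.33%, under the rule. The remaining FGFRL genes together had 1 read in tail cells at equal depth, of ndl-1. ndl-2 was expressed in 6 of 22 pre-pharyngeal cells and 0 of 12 tail cells, where it had no read at equal depth. Its mean was 281, 33.3 and 40 cpm in regions 2, 3 and 4. Against a floor of 3 reads over the tail cells its mean was 37.5-fold higher in pre-pharyngeal muscle, a ratio that leaves out variation between cells. A single cell gave 57.8% of its reads. ndk was expressed in 2 pre-pharyngeal cells and ndl-5 in 1, with 0 tail reads each, and 93.5% of the ndl-5 reads came from a single region 2 cell. ndl-1 and ndl-4 were expressed in no cell of either group, with 2 reads or fewer a side. ndk, ndl-1 and ndl-4 did not pass the filter.

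**Figure D3:**
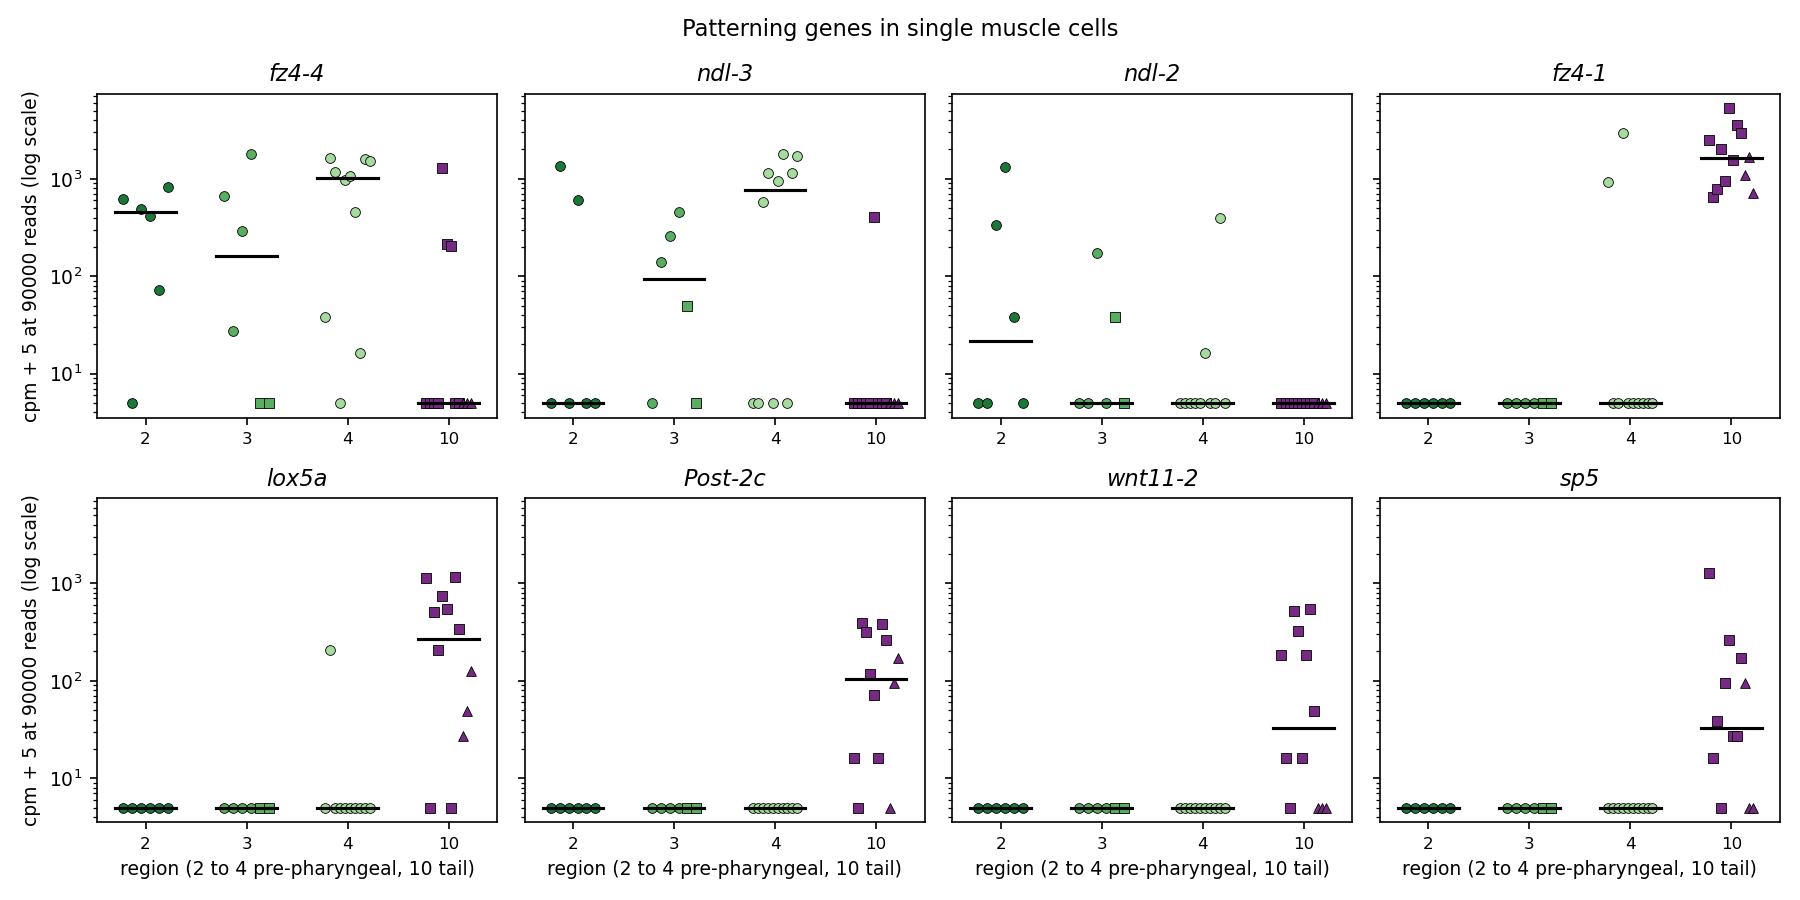
Level of 8 patterning genes in each muscle cell of regions 2, 3, 4 and 10, as cpm + 5 at 90000 reads on a log axis. Each point is a cell, cells at the bottom had no read, shapes give label numbers (circles under 450, squares 450 to 530, triangles above 530) and bars are medians. fz4-1 was present in all 12 tail cells, whereas Post-2c, wnt11-2 and sp5 had no read in any pre-pharyngeal cell.

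The Hox genes that could be measured were all on the tail side. lox5a was expressed in 1 of 22 pre-pharyngeal cells (4.55%, 0.115 to 22.8%) and 9 of 12 tail cells (75.0%, 42.8 to 94.5%), with means of 0, 0 and 20 cpm in regions 2, 3 and 4 and 399.1 cpm in region 10. The lone expressing pre-pharyngeal cell, from region 4, had 200 cpm, and tail cells had 0 to 1156 cpm with a median of 267 cpm. The log2 ratio was -4.84.

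Post-2c, which matches human HOXC12 best, had no read in any of the 22 pre-pharyngeal cells and was expressed in 8 of 12 tail cells (66.7%, 34.9 to 90.1%). Its tail levels ran from 0 to 388.9 cpm with a median of 100 cpm. Against a floor of 3 reads over the pre-pharyngeal cells its mean was 98.4-fold higher in tail muscle, a ratio that leaves out variation between cells. hox4b was expressed in 0 of 6, 1 of 6 and 6 of 10 cells of regions 2, 3 and 4. In tail muscle 10 of 12 cells expressed it. Its means were 1.85, 16.7 and 41.1 cpm in regions 2, 3 and 4 and 214 cpm in region 10, and its log2 ratio was -2.93. Without region 2 its shares were 43.8% and 83.3%, just under the rule. The contig of Post-2d was not analysed here.

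Wnt ligands are secreted proteins, and their domains in planarian muscle are mostly posterior. wnt11-2 was expressed in 0 of 22 pre-pharyngeal cells and 6 of 12 tail cells (50%, 21.1 to 78.9%), and had no pre-pharyngeal read. Tail cells had 0 to 544.4 cpm with a median of 27.8 cpm. Against a floor of 3 pre-pharyngeal reads its mean was 99.0-fold higher in tail muscle, with 30.2% of the tail reads from a single cell. None of the 3 tail cells numbered above 530 expressed it. Without the 8 tail cells over 1000000 reads it was in 25.0% of the remaining tail cells, with a log2 ratio of -1.69, and was not past the rule. Those 4 remaining cells include the 3 numbered above 530.

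wnt11-1 was likewise without a read in pre-pharyngeal cells and was expressed in 5 of 12 tail cells (41.7%, 15.2 to 72.3%), at up to 377.8 cpm. Against a floor of 3 pre-pharyngeal reads its mean was 49.5-fold higher in tail muscle. wnt1, the ligand of the posterior pole, was found in 1 tail cell alone, at 2300.0 cpm, and did not pass the filter. wntP-2 was expressed in 3 of 22 pre-pharyngeal cells and 4 of 12 tail cells, and 70% of its tail reads came from a single cell.

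wnt2, whose in situ domain is pre-pharyngeal, was expressed in 5 of 22 pre-pharyngeal cells and 1 of 12 tail cells, with means of 7.41, 0 and 180.0 cpm in regions 2, 3 and 4 and 38.9 cpm in region 10. Its log2 ratio was 1.02 by cells, and on sums, where deep cells weigh more, edgeR gave -1.05 (adjusted p = 1.0). The contig named wntA was the ligand with the highest share on both sides, 15 of 22 pre-pharyngeal and 11 of 12 tail cells, with a log2 ratio of -0.43. The human match listed for this contig is PRKAG1, a kinase subunit and no Wnt protein, so the identity of this contig is uncertain.

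Genes that act on Wnt proteins were found on both sides. wntless, which carries Wnt proteins to the cell surface for secretion, was expressed in 2 of 22 pre-pharyngeal cells (9.09%, 1.12 to 29.2%) and 8 of 12 tail cells (66.7%, 34.9 to 90.1%). Its means were 1.85, 0 and 13.3 cpm in regions 2, 3 and 4 and 162 cpm in region 10. axin2, a scaffold of the complex that degrades beta-catenin, was expressed in 9 of 22 and 8 of 12 cells and did not pass the rule. sFRP-2, a secreted Wnt inhibitor, was expressed in 9 of 22 pre-pharyngeal cells (40.9%) and 1 of 12 tail cells (8.33%), with means of 192 and 6.48 cpm, 32.6 points apart. With all reads, where tail cells are deeper, its shares were 45.5% and 41.7%. sFRP-1 was expressed in 2 cells on each side, and notum in 1 tail cell at 88.9 cpm.

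Among the other mRGs, 6 passed the rule, all in the tail direction. sp5, named for a zinc-finger transcription factor that is a Wnt target in vertebrates, had no read in pre-pharyngeal cells and was expressed in 6 of 12 tail cells (50%, 21.1 to 78.9%), although 65.0% of its reads came from a single tail cell at 1278 cpm. dd_15686, with no human match, had no pre-pharyngeal read and was expressed in 7 of 12 tail cells. dd_13065 was expressed in 2 of 22 and 9 of 12 cells and dd_4427 in 6 of 22 and 9 of 12. A contig matching human CTNNB1 (beta-catenin) was expressed in 1 of 22 pre-pharyngeal cells and 8 of 12 tail cells, including all 3 numbered above 530. EFR3, whose yeast relative anchors a lipid kinase at the plasma membrane, was expressed in 0 of 22 and 5 of 12 cells, although its in situ pattern is anterior. In region 1, outside the comparison, 6 of 10 cells expressed it. Without the 3 tail cells numbered above 530 it was in 33.3% of tail cells and under the rule. IGFALS, whose human match is a binding protein of insulin-like growth factors, was expressed in 15 of 22 pre-pharyngeal cells and 12 of 12 tail cells, with means of 137, 540.7 and 1197 cpm in regions 2, 3 and 4 and 2316 cpm in region 10.

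Of the 44 mRGs, 43 had a contig in the table and 35 passed the filter, which a gene can do through its high group alone. By in situ side, 12 of the 18 posterior mRGs that passed the filter were past the size rule toward tail muscle and none toward pre-pharyngeal muscle, 2 of the 4 pre-pharyngeal mRGs were past it toward pre-pharyngeal muscle, and of the 9 anterior mRGs only EFR3 was past it, toward tail muscle. The median difference of shares was -50 points for the posterior, 30.3 points for the pre-pharyngeal and 4.55 points for the anterior mRGs. Over all 9228 transcripts 0.845% were past the rule toward tail and 0.0433% toward pre-pharyngeal muscle, and the median difference was -5.30 points. No mRG passed the edgeR threshold.

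The mRGs expressed in each single cell were also counted, and whether they combine beyond what their shares give was not tested. Pre-pharyngeal cells expressed 0 to 8 posterior mRGs (median 2.0) and tail cells 7 to 15 (median 11.5), out of the 19 in the table. Within the pre-pharyngeal group the mean number was 1.0 in region 2, 1.67 in region 3 and 4.0 in region 4. Transcripts expressed per cell rose in the same order, with medians of 1740.5, 1982 and 2231. Only the region 4 cells r04_371 with 8 posterior mRGs and r04_411 with 7 reached the range of tail cells. The 3 tail cells numbered above 530 expressed 7 to 13 posterior mRGs, with 1518 to 2271 transcripts. The other 9 tail cells expressed 7 to 15, with 2580 to 3542 transcripts, more than any pre-pharyngeal cell. The part of the number of transcripts in these counts was not tested. Anterior mRGs did not separate the groups, at a mean of 1.32 per pre-pharyngeal cell and 1.25 per tail cell.

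**Figure D4:**
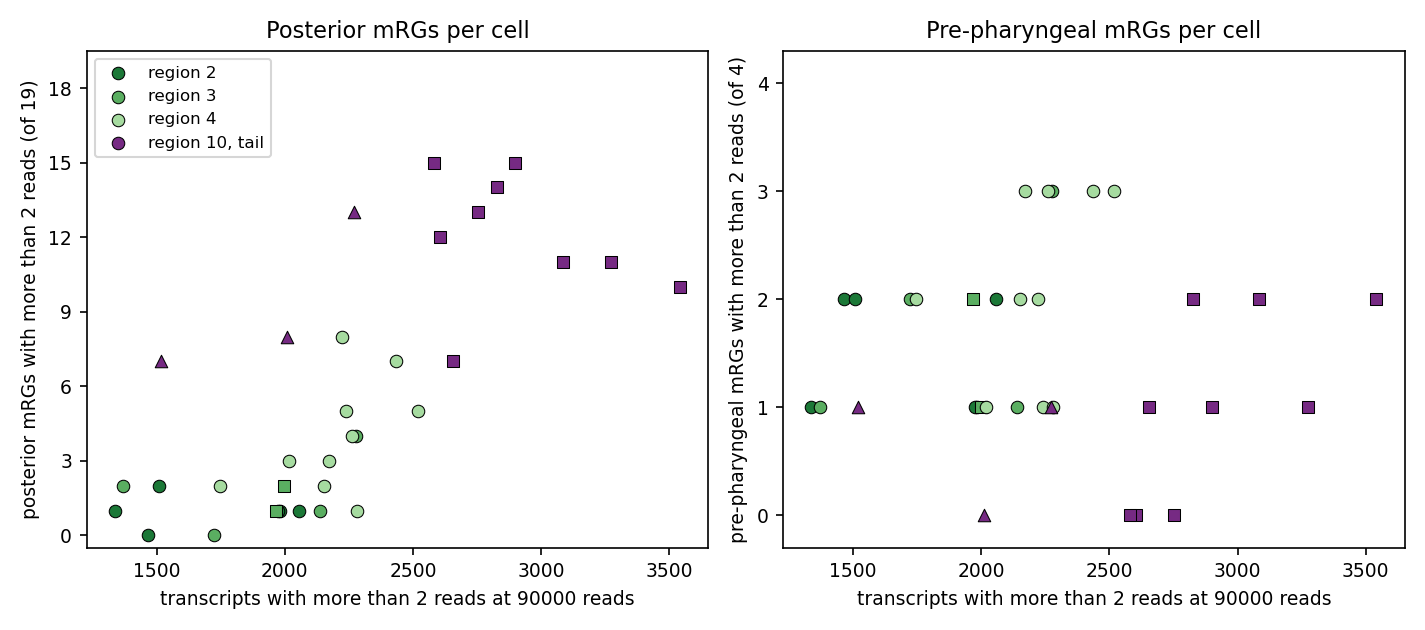
Number of posterior mRGs (left, of 19) and of pre-pharyngeal mRGs (right, of 4) with more than 2 reads in each cell, against the number of transcripts expressed in that cell, all at 90000 reads. Colors give the region and shapes the label number (circles under 450, squares 450 to 530, triangles above 530). Tail cells hold 7 to 15 posterior mRGs and pre-pharyngeal cells 0 to 8.

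Every pre-pharyngeal cell expressed at least 1 of the 4 pre-pharyngeal mRGs (fz4-3, fz4-4, ndl-3 and wnt2), as did 8 of the 12 tail cells. ndl-3 and fz4-4 were found together in 8 pre-pharyngeal cells, ndl-3 without fz4-4 in 4, fz4-4 without ndl-3 in 8 and neither in 2. In tail muscle 9 cells had neither. The 2 region 4 cells with fz4-1 differed from each other. Cell r04_371 also expressed hox4b, wntless, dd_13065, dd_4427 and axin2, with fz4-4 at 33.3 cpm and no ndl-3 read. Cell r04_401 had ndl-3 at 1133 cpm and sFRP-2 at 689 cpm, and no read of those other posterior genes.

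The regions between the 2 groups placed these genes on the axis. Mean cpm of fz4-1 over all reads was 382.8 cpm in region 4, 112 to 731 cpm in regions 5 to 9 and 1931 cpm in region 10. lox5a was as high in region 7 (502.7 cpm) as in region 10 (398.8 cpm). Post-2c, sp5 and dd_15686 were at 0 cpm in regions 1 to 4 and first had reads in region 5. On the other side, ndl-3 was at 411.3 cpm in region 5, 156 cpm in region 6 and 128 cpm in region 7, and fz4-4 was at 657 cpm in region 1, so neither was limited to regions 2 to 4.

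**Figure D5:**
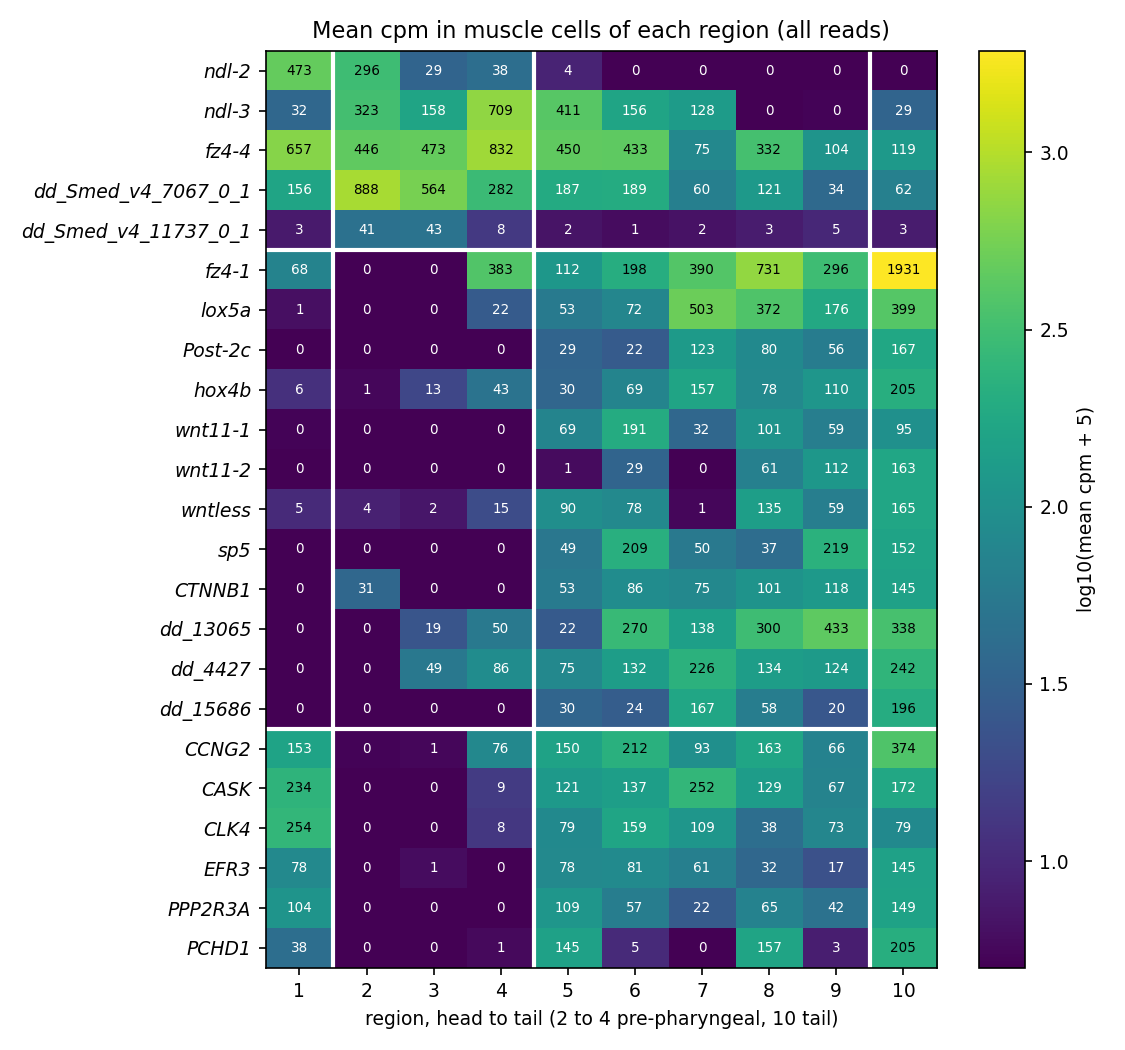
Mean cpm of muscle in regions 1 to 10, from all reads, with the value printed in each field and color on a log10 scale of cpm + 5. The upper block holds genes higher in pre-pharyngeal muscle and the middle block mRGs higher in tail muscle. The lower block holds other tail-side genes, among them the mRG EFR3. White vertical lines enclose regions 2 to 4 and region 10. Genes of the lower block, such as CASK at 234 cpm in region 1, are low in regions 2 to 4 and present on both sides of them.

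Of the transcripts outside the mRGs, the named ones with the widest share differences toward tail muscle were dd_33146, CCNG2, CASK, CLK4, dd_53369, dd_15789, PCHD1 and PPP2R3A. They are named after their best human match or their contig. CCNG2, a match to cyclin G2, was expressed in 3 of 22 pre-pharyngeal cells, all in region 4, and 10 of 12 tail cells, with means of 38.4 and 368 cpm. CASK, a scaffold protein of cell junctions and synapses in mammals, was expressed in 1 of 22 and 7 of 12 cells. CLK4, a kinase of splicing factors in mammals, was also expressed in 1 of 22 and 7 of 12 cells.

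PPP2R3A, a regulatory subunit of protein phosphatase 2A, and PCHD1, a match to a protocadherin of cell adhesion, were each expressed in 0 of 22 pre-pharyngeal and 5 of 12 tail cells. Without the 3 tail cells numbered above 530 PCHD1 was in 33.3% of tail cells and under the rule. All 5 PPP2R3A cells were among the 8 tail cells over 1000000 reads before thinning. At 90000 reads CASK was also expressed in 6 of 10 region 1 cells and in 33.3% of the 54 cells of regions 5 to 9, and CLK4 in 7 of 10 and 57.4%. Cells on both sides of regions 2 to 4 thus expressed both genes. Without the 8 tail cells over 1000000 reads, which leaves 4 tail cells with the 3 numbered above 530 among them, neither was past the rule. CASK was then at 4.55% and 25.0% (log2 ratio -1.65) and CLK4 at 4.55% and 50% (log2 ratio -1.76). At 50000 reads CLK4 was also not past the rule. CCNG2 was expressed in 5 of 10 region 1 cells and 48.1% of those of regions 5 to 9. Among region 1 cells with numbers under 450, the range of most pre-pharyngeal cells, CASK was expressed in 5 of 8 and CLK4 in 6 of 8.

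dd_33146, dd_53369 and dd_15789 had the largest log2 ratios toward tail muscle among the named transcripts, -7.84, -8.10 and -5.75. Without the 3 tail cells numbered above 530 the ratio of dd_53369 was -1.49, which is under the 4-fold rule, and that of dd_15789 turned to 0.46, while dd_33146 was still past the rule. In the 9 remaining tail cells dd_33146 averaged 97.5 cpm, against 11.6 cpm in pre-pharyngeal cells.

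Of the 55 tail-side transcripts with no name in the lists, the widest differences were those of dd_Smed_v4_3815_0_1 (27.3% and 91.7%), dd_Smed_v4_7926_0_1 (13.6% and 75.0%) and dd_Smed_v4_12410_0_1 (13.6% and 75.0%). dd_Smed_v4_12410_0_1 was in all 9 tail cells with lower numbers and in none of the 3 above 530, whereas dd_Smed_v4_3815_0_1 averaged 76.5 cpm in those 9 and 204 cpm in those 3. Only dd_Smed_v4_7926_0_1 among them was past the rule under every alternative tried.

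The 2 unnamed transcripts on the pre-pharyngeal side differed in kind. dd_Smed_v4_7067_0_1 was expressed in 17 of 22 pre-pharyngeal cells (77.3%, 54.6 to 92.2%) and 4 of 12 tail cells (33.3%, 9.92 to 65.1%). It declined within the group, with means of 872, 566.7 and 261 cpm in regions 2, 3 and 4 and 48.1 cpm in region 10. Within the shared number range it was past the rule, in 2 of 2 region 3 cells and 2 of 9 tail cells. It was not past the rule with all reads (81.8% and 50%), at 1 or more reads, or without the 8 tail cells over 1000000 reads, where the shares were 77.3% and 75.0%. The 4 tail cells left in that last run include the 3 numbered above 530.

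dd_Smed_v4_11737_0_1 was expressed in 9 of 22 pre-pharyngeal cells (40.9%) and 0 of 12 tail cells, at 32.3 and 2.78 cpm. No muscle cell of region 1 or regions 5 to 9 expressed it at equal depth, and all 9 expressing cells had numbers under 450. Of the cells with numbers under 450 that reach 90000 reads, none of 15 in regions 5 to 9 and none of 8 in region 1 expressed it. It was not past the rule when region 2 or region 3 was left out, at 50000 reads, or at 1 or more reads. With all reads 50% of cells on each side had more than 2 reads, so its share differed at equal depth alone, while its level differed at both depths (log2 ratio 2.03 with all reads).

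Lists of transcripts of other tissues were read the same way. Of 46 transcripts whose in situ pattern was the central nervous system alone, 34 passed the filter, and 4 were past the size rule toward tail and 0 toward pre-pharyngeal muscle, with a median difference of -18.2 points. Over all transcripts tested 0.845% were past the rule toward tail and 0.0433% toward pre-pharyngeal muscle, with a median of -5.30 points. Transcripts of the study's in situ screen were, however, in part chosen on these same cells. Of the 187 screened transcripts of any pattern that passed the filter, 23 were past the rule toward tail and 2 toward pre-pharyngeal muscle. Their median was -12.1 points. The 4 with a nervous system pattern were CCNG2, CLK4, PCHD1 and TPH1, this last a match to tryptophan hydroxylase, the enzyme of serotonin synthesis. Of the transcripts with an epidermal pattern 9 of 16 and of those with a gut pattern 6 of 12 passed the filter, with medians of -7.58 and -10.2 points and none past the rule. Among the markers of muscle, of the epidermal lineage and of neoblasts none was past the rule, and the largest ratio of a neoblast marker was that of PC-2, at 2.39.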

How the data were processed

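Single cells were measured by RNA sequencing. The authors trimmed the reads of each single-cell library with cutadapt, aligned these to the dd_Smed_v4 transcript assembly with bowtie 1 (full version not given in the sources used here), discarded prominent mitochondrial and ribosomal contigs, summed the counts of an isotig, and dropped libraries with fewer than 1000 transcripts. The submitters' processing notes also name CASAVA 1.7.0. The deposited table gives raw counts for 26560 transcripts. Reads carry no molecular identifiers, so binomial and Poisson intervals cover counting error only. The authors' deposited SCDE tables, which hold log2 ratios and Z-scores per transcript of 3 comparisons, were not used.

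Of the transcripts in the table, 16384 had a read in the 34 cells and 9228 were tested. Cells were thinned without replacement to 90000 reads (numpy 2.4.6). Sums per region were tested with edgeR 4.0.16 (R 4.3.3; robust quasi-likelihood, TMM, 2 residual degrees of freedom, threshold 0.05), and DESeq2 1.42.0 and limma 3.58.1 were alternatives. Each fit was also run on simulated sums drawn with edgeR's own dispersions, which cannot decide between the tools. The SE printed with an edgeR log2 ratio was derived from the fit, as the size of the ratio divided by the square root of its F statistic. No doublet caller was run.

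Genes named in full were the FGFRL, Hox and Wnt ligand mRGs and mRGs past a rule. Outside the mRGs they were, in each direction, the 8 listed and the 3 unlisted transcripts with the widest share difference past the size rule, and those past the edgeR threshold. TPH1 and values of other genes were added after their values were seen. The comparison and the lists were chosen with earlier results of these data known. Alternatives changed normalization, tool, filter, depth, the reads that count as expressed, pseudocount, and the regions and cells used. The run without the 3 tail cells numbered above 530 was added after the data had been seen.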

Additional observations from a re-analysis of the deposited data

How the results depend on the processing

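No paired analysis was possible because the labels give no replicate numbers shared between regions. On region sums, calls higher in pre-pharyngeal muscle numbered 49 with DESeq2 and 0 in every other fit run. Calls higher in tail muscle, 2 in the edgeR fit, numbered 5 with DESeq2, 17 with no filter, 7 on thinned sums, 1 with limma, 6 to 9 when a region was left out, and 0 without the 3 tail cells numbered above 530. Transcripts past the size rule toward pre-pharyngeal muscle, 4 at equal depth, numbered 2 with all reads, 8 at 50000 reads, 9 to 18 when a region was left out, 328 for label numbers 450 to 530 only (2 cells against 9), 126 without the 8 tail cells over 1000000 reads, and 8 without the 3 tail cells. Toward tail muscle, 78 at equal depth, they numbered 170 with all reads, 121 at 1 or more reads, 24 at more than 10 reads, 89 to 223 when a region was left out, 1078 for label numbers 450 to 530, 155 without the deep tail cells, and 134 without the 3 tail cells. Of the 78, 66 were also past the rule with all reads, 22 at more than 10 reads and 59 for label numbers 450 to 530. Without the deep tail cells 39 were past it and 11 had the opposite log2 sign. In that run 3 of the 4 tail cells left are those numbered above 530, so it changes depth and label number together. Of the 15 mRGs past the rule, fz4-1, lox5a, Post-2c, wntless and dd_13065 were past it under each of the 11 alternatives. Signs of named calls turned for ndl-3 (log2 -0.86) and fz4-4 (-33.3 points, log2 -5.29) in label numbers 450 to 530 and for dd_15789 (log2 0.46) without the 3 tail cells. The mean difference in mRGs per cell was 0.068 for anterior genes, -0.015 without the 3 tail cells, and -8.79 for posterior genes, -10.8 with all reads. The cause was not tested. Both cell number and depth limit the shares: 0 of 12 tail cells allows a share of up to 26.5% at that depth, and dd_Smed_v4_11737_0_1, in 0 of 12 tail cells at 90000 reads, was in 50% with all reads.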

Other observations

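Non-muscle cells of the same regions gave a side view of the named genes, in 4 cells of regions 2 to 4 and 7 cells of region 10 that reach 90000 reads, which are too few for any comparison. fz4-1, with the widest difference of shares in muscle at 90000 reads, was expressed in 0 of 4 pre-pharyngeal and 0 of 7 tail non-muscle cells, and in 3 of 56 non-muscle cells in all. wnt11-2, wntP-2, ndl-2, wnt2 and fz4-2 were expressed in none of the 56. The CTNNB1 contig was not limited to muscle, with 1 of 4 pre-pharyngeal and 5 of 7 tail non-muscle cells expressing it. sp5 was expressed in 2 of 4 pre-pharyngeal non-muscle cells, at a mean of 231 cpm over the 4, and in 2 of 7 tail non-muscle cells, although no pre-pharyngeal muscle cell had a read of it. dd_53369 was expressed in 1 of 4 pre-pharyngeal and 7 of 7 tail non-muscle cells, with means of 11.1 and 10676 cpm.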
